A study of Mus musculus with 6 samples.

Results

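The genes described here encode the subunits of the mitochondrial oxidative phosphorylation system, and their transcripts were compared between diploid and tetraploid mouse hepatocytes. They were taken from the deposited array table by their gene symbols, which start with Ndufa, Ndufb, Ndufc, Ndufs, Ndufv, Sdha to Sdhd, Uqcr, Cyc1, Cycs, Cox4 to Cox8 or Atp5, with the Ndufaf symbols left out. This rule found 84 of 12393 genes that had a probe set carrying their symbol alone, and no measured value entered it. Where a gene had several probe sets, the brightest on average was taken. The genes fell into 33 of complex I, 4 of complex II, 10 of complex III with its electron carrier cytochrome c, 17 of complex IV and 17 of complex V. The other 3, Sdhaf1, Sdhaf2 and Sdhaf4, share a prefix with complex II but encode factors that assemble it, and they are given apart. Ndufa4, which keeps a complex I symbol but belongs to cytochrome c oxidase, was placed in complex IV. Ndufa11, Ndufb4 and Ndufs6 were found only on probe sets with several symbols and were not analysed here.

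The hepatocytes came from wild-type C57BL/6 mice aged 3 weeks. Freshly isolated cells were stained alive with Hoechst 33342, a dye that binds DNA, and sorted into a diploid and a tetraploid fraction, from which total RNA was taken at once. Each fraction was measured on 3 Affymetrix arrays, and all 6 arrays share the strain, the age and the staining. The sort was by DNA content, so diploid cells in G2 or mitosis could enter the tetraploid fraction. The sample titles call the replicates biological, but the labels do not tell whether each was a different animal. The p-values therefore describe the spread of these 6 samples, which may not be a spread between animals. The titles also do not tell whether a diploid and a tetraploid sample came from the same animal, and the main fit treated the samples as unpaired.

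Oxidative phosphorylation makes most of the ATP of a resting hepatocyte. Complex I takes electrons from NADH and complex II takes them from succinate, a step it shares with the citrate cycle. Both pass them to ubiquinone, complex III hands them on to cytochrome c, and complex IV gives them to oxygen. Complexes I, III and IV pump protons out of the matrix, and complex V lets them flow back to make ATP. A few subunits of complexes I, III, IV and V are encoded in mitochondrial DNA, while every gene described here is nuclear. The nuclear genes are known to be under the control of shared factors, among them NRF1, GABPA (also called NRF2), YY1 and the estrogen-related receptors, and several subunits of complex IV have a second isoform that heart and skeletal muscle, lung or testis use.

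Because these genes share such factors, the letters around their transcription starts were searched for 4 motifs on both strands. These were the NRF1 motif, CCGGAAG for GABPA and other ETS factors, AAGATGGC for YY1 and TCAAGGTCA for the estrogen-related receptors. RefSeq promoter windows of build GRCm38.p6, each from 250 bases before to 50 bases after a start, were found for 66 of the 81 subunit genes. At least 1 of the 4 motifs stood in a window of 35 of the 66 genes (53.0%), against 21.3% of 17492 protein-coding genes with a window of the same length. The NRF1 motif was found for 14 genes (21.2% against 7.17%), the GABPA motif for 17 (25.8% against 12.9%), the YY1 motif for 9 (13.6% against 3.57%) and the receptor motif for 2 (3.03% against 0.377%). A gene can count under several motifs, as 6 did. The windows had a median GC content of 58.7%, against 56.3% for protein-coding genes. By complex, a motif was found for 14 of 30 genes of complex I, 3 of 3 of complex II, 3 of 6 of complex III, 3 of 12 of complex IV and 12 of 15 of complex V. Some matches lay after the start, among them most of those of the YY1 motif. A match describes the letters only.

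The 100 bases before the start follow for 5 genes, 1 from each complex, chosen as the gene with the smallest p in the comparison of the fractions among those with a motif in this stretch. Cox7a1, the subunit gene with the smallest p of all, is added, and its stretch held none of the 4 motifs. Bases that match a motif are in capitals, and each sequence is read 5′ to 3′ on the strand of the gene. Ndufa8 and Atp5c1 hold an NRF1 match, Sdha holds 3 of them, and Uqcr11 and Cox6b1 hold a GABPA match.
Ndufa8 (chr2:36049339-36049438, minus strand): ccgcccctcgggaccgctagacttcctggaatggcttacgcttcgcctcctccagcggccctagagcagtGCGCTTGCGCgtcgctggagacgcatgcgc
Sdha (chr13:74350241-74350340, minus strand): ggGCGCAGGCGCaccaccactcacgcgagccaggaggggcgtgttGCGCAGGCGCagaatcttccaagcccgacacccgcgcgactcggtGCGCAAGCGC
Uqcr11 (chr10:80406822-80406921, minus strand): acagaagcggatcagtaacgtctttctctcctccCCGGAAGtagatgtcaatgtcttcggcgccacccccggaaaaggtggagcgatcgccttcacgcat
Cox6b1 (chr7:30626115-30626214, minus strand): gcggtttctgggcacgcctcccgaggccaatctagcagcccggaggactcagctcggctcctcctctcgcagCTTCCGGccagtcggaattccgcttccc
Atp5c1 (chr2:10080433-10080532, minus strand): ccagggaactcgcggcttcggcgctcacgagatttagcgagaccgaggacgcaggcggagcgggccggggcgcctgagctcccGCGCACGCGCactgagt
Cox7a1 (chr7:30184071-30184170, plus strand): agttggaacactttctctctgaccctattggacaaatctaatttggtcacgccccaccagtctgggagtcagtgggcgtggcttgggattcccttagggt

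Values are log2 intensities as the authors' RMA left them, with all arrays brought to nearly the same distribution, so a difference is a shift against the rest of the RNA on an array. The RNA content of a cell does not show in such values, so a lower value is a lower share of the RNA and not a lower amount per cell. A lower level in the cells and a smaller number of cells of a type cannot be told apart either. Pearson correlations between arrays across probe sets lay between 0.992 and 0.997. The dimmest 25% of genes, with a mean log2 intensity under 5.06, were left out of the tests. All 8 hepatocyte markers on the array passed this limit, with Alb at 15.56 and the transcription factor gene Hnf4a at 12.68 in diploid cells. Of 10 endothelial markers 8 passed it too, from Lyve1 at 5.44 and Stab1 at 5.46 up to Fcgr2b at 8.03 in diploid cells. The limit leaves out only the dimmest 25% of genes, so passing it does not show that a cell type was present.

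Transcripts of oxidative phosphorylation subunits were slightly lower on average in tetraploid than in diploid hepatocytes in each of the 5 complexes, and no single subunit passed the test. Of 80 subunit genes tested, 71 were lower on average in tetraploid cells and 9 were higher, where 52.2% of all 9295 genes tested were lower and 47.8% higher. The median log2 difference, tetraploid minus diploid, was -0.066 over the 80 genes, -0.006 over all genes tested and 0.003 over the brightest 25% of them, the genes above a mean log2 intensity of 9.64. By limma with Benjamini-Hochberg adjustment over all genes, 0 of the 80 passed an adjusted p of 0.05, as 0% of all genes did, and the smallest adjusted p among them was 0.327. At an unadjusted limma p under 0.05 there were 2 lower subunit genes, Cox7a1 and Cyc1, and 0 higher, where 3.85% of all genes were lower and 2.32% higher, 6.18% in all. The 3 tetraploid values lay below the 3 diploid values without overlap in 25 of the 80 genes, against 7.08% of all genes, and above them in 0, against 5.22% of all genes.

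**Figure D1:**
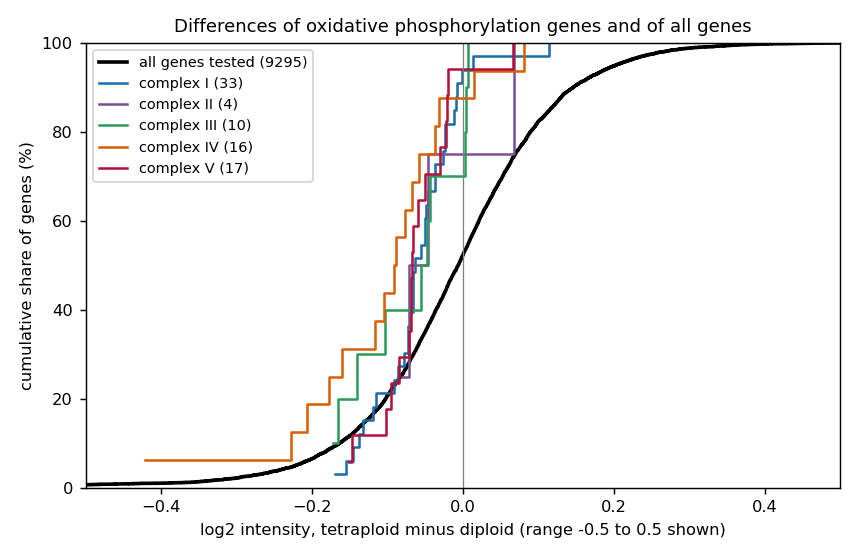
Cumulative share of genes (vertical axis, percent) by log2 difference in intensity, tetraploid minus diploid (horizontal axis), for the tested genes of each complex and for all 9295 genes tested. The curves of the complexes reach most of their height left of 0, with medians between -0.090 and -0.052, while the curve of all genes crosses 50% near 0.

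The differences were small for almost every subunit. The 95% interval of the log2 difference lay within a 1.5-fold change in either direction for 79 of the 80 genes, the exception being Cox7a1. A log2 difference beyond 0.25 was seen for 1 of the 80, again Cox7a1, where 6.33% of all genes had one. The median standard error was 0.073 for the subunits and 0.095 for all genes.

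**Figure D2:**
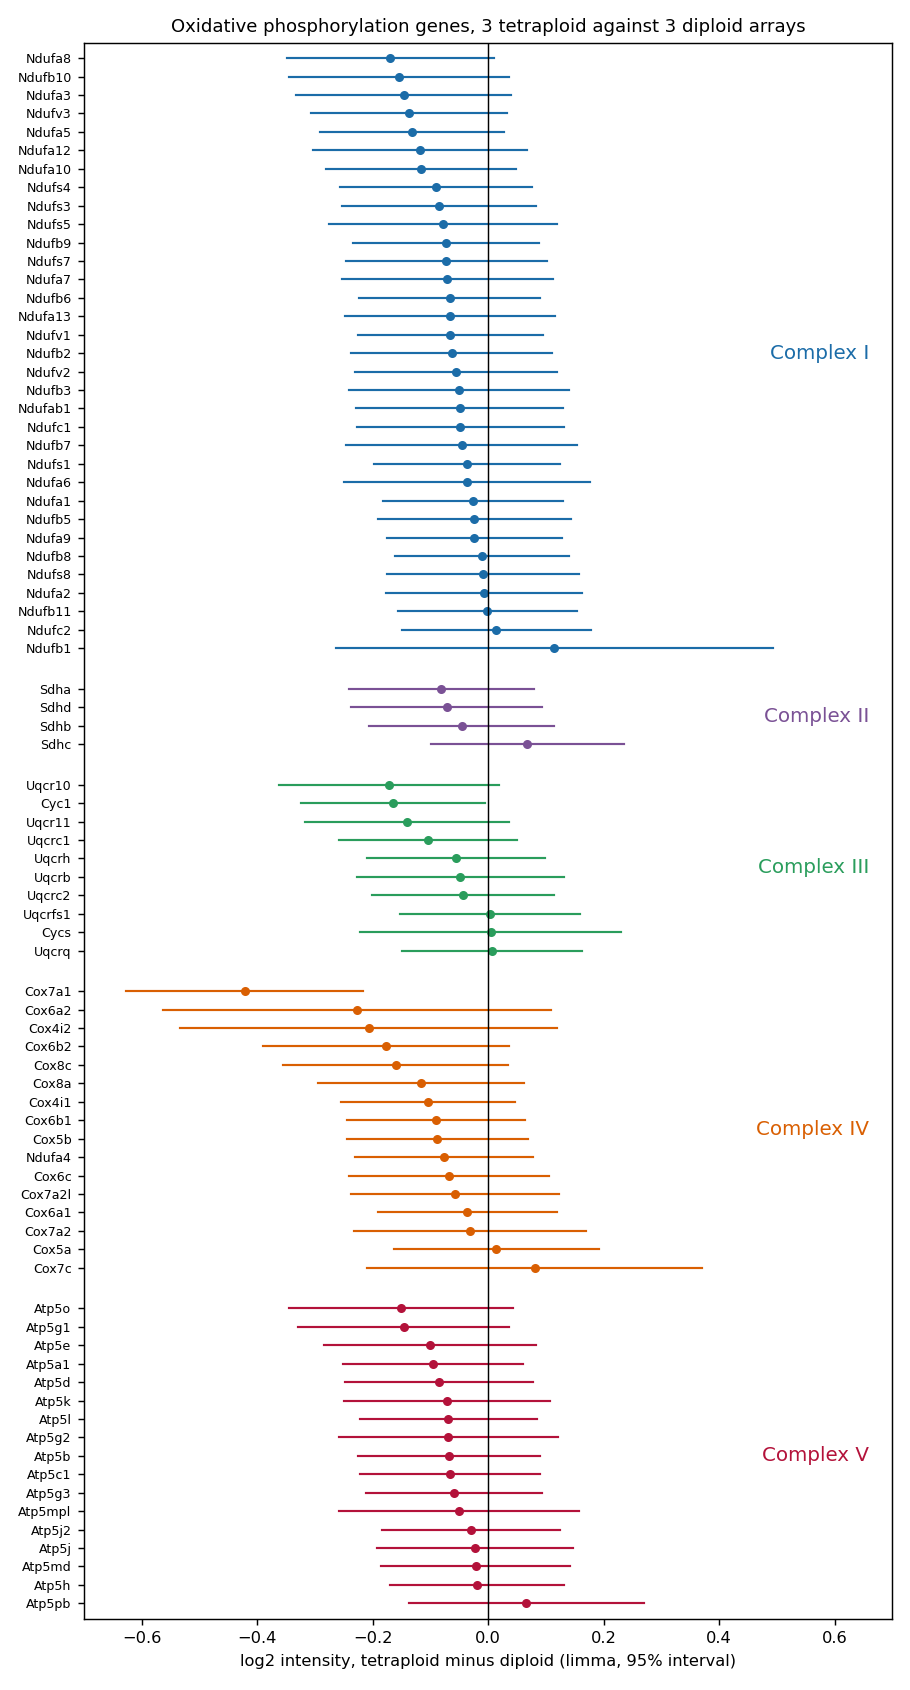
Log2 difference in intensity, tetraploid minus diploid, of each tested subunit gene (points) with its 95% interval from limma (bars), grouped by complex. Most points lie just left of 0 with intervals that cross it, and the intervals of Cox7a1 and Cyc1 lie wholly below 0.

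Complex I, the NADH dehydrogenase, had 33 tested genes, of which 31 had a lower and 2 a higher tetraploid mean, with a median of -0.064. The fractions did not overlap in 6 of the 33, all lower (7.08% of all genes): Ndufa3, Ndufa5, Ndufa8, Ndufa10, Ndufb10 and Ndufv3. Ndufa8, an accessory subunit of the intermembrane space side, had the smallest p of the complex. Its log2 intensities were 11.99, 11.80 and 11.86 in diploid replicates 1 to 3 and 11.75, 11.69 and 11.71 in tetraploid replicates 1 to 3. The fractions were apart by less than the spread of the diploid arrays, and the difference was -0.17 ± 0.08 (SE, n = 3 per fraction), a fold of 0.889, with a limma adjusted p of 0.810.

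Ndufb10, an accessory subunit of the membrane arm, was at 11.91, 11.77 and 11.77 in diploid and 11.75, 11.58 and 11.65 in tetraploid cells. Ndufa5, a subunit of the matrix arm, was at 11.75, 11.70 and 11.76 in diploid and 11.66, 11.57 and 11.58 in tetraploid cells. In both genes the highest tetraploid array lay just under the lowest diploid one, and the differences were -0.16 ± 0.08 and -0.13 ± 0.07 (SE, n = 3 per fraction).

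Core subunits that carry electrons were among the reference genes. Ndufv1, which binds NADH and the flavin, had a difference of -0.066 ± 0.068, and Ndufs1, the largest iron-sulfur subunit, one of -0.037 ± 0.069 (SE, n = 3 per fraction). Ndufs1 was at 11.64, 11.68 and 11.64 in diploid and 11.55, 11.66 and 11.64 in tetraploid cells, so the fractions overlapped. Ndufa9, which sits where the matrix arm meets the membrane arm, and Ndufb8, a membrane arm subunit often used to judge assembled complex I, differed by -0.024 ± 0.065 and -0.011 ± 0.065. The 2 genes with a higher tetraploid mean were Ndufc2, at 0.014 ± 0.070, and Ndufb1, at 0.11 ± 0.16. Ndufb1 was at 6.62, 6.61 and 6.58 in diploid and 7.12, 6.46 and 6.57 in tetraploid cells. Tetraploid replicate 1 alone stood above the diploid arrays there, and without it the difference was -0.086.

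Complex II, the succinate dehydrogenase, had 4 genes, of which 3 had a lower and 1 a higher tetraploid mean, with a median of -0.059. Sdha, the flavoprotein that oxidises succinate, was at 12.72, 12.74 and 12.72 in diploid and 12.58, 12.70 and 12.66 in tetraploid cells. The diploid arrays lay close together and all 3 tetraploid arrays lay below them, with a difference of -0.081 ± 0.069 (SE, n = 3 per fraction). Sdhb, the iron-sulfur subunit, differed by -0.046 ± 0.069, and of the membrane anchors that bind ubiquinone Sdhd differed by -0.072 ± 0.071 and Sdhc by 0.068 ± 0.071. Sdhc was at 10.91, 10.93 and 10.88 in diploid and 11.05, 10.96 and 10.91 in tetraploid cells, with tetraploid replicate 1 highest and the fractions overlapping. The assembly factors Sdhaf1, Sdhaf2 and Sdhaf4 differed by 0.18 ± 0.14, 0.004 ± 0.072 and -0.048 ± 0.091, with overlap in each.

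Complex III, the cytochrome bc1 complex, and cytochrome c had 10 genes, of which 7 had a lower and 3 a higher tetraploid mean, with a median of -0.052. The fractions did not overlap in 4 of the 10, all lower (7.08% of all genes): Cyc1, Uqcr10, Uqcr11 and Uqcrc1. Cyc1, cytochrome c1, which passes electrons to cytochrome c, was at 12.86, 12.85 and 12.84 in diploid and 12.63, 12.68 and 12.74 in tetraploid cells. The diploid arrays were nearly equal and each tetraploid array was lower, with a difference of -0.17 ± 0.07 (SE, n = 3 per fraction), a fold of 0.892, and a limma adjusted p of 0.794.

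Uqcr10, a small subunit next to cytochrome c1, was at 12.80, 12.63 and 12.63 in diploid and 12.59, 12.50 and 12.45 in tetraploid cells. Diploid replicate 1 was highest and the other 2 diploid arrays lay just above tetraploid replicate 1, with a difference of -0.17 ± 0.08. Uqcr11, another small subunit, differed by -0.14 ± 0.08, and the core proteins Uqcrc1 and Uqcrc2, which form the matrix side of the complex, differed by -0.10 ± 0.07 and -0.044 ± 0.068 (SE, n = 3 per fraction). Uqcrfs1, the Rieske iron-sulfur protein, was at 12.79, 12.79 and 12.80 in diploid and 12.84, 12.81 and 12.74 in tetraploid cells, a difference of 0.002 ± 0.067 with tetraploid arrays on both sides of the diploid ones.

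Cycs, the cytochrome c of body cells, was at 13.35, 13.56 and 13.39 in diploid and 13.58, 13.32 and 13.41 in tetraploid cells. A high array stood in each fraction, and the difference was 0.004 ± 0.097. This probe set is of a kind that can match several transcripts. The other pair of Cycs probe sets, of which only the brighter is of that kind, both differed by -0.12.

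Complex IV, cytochrome c oxidase, had 16 tested genes, of which 14 had a lower and 2 a higher tetraploid mean, with a median of -0.090. The fractions did not overlap in 6 of the 16, all lower (7.08% of all genes): Cox4i1, Cox5b, Cox6b1, Cox7a1, Cox8c and Ndufa4. Cox7a1, the isoform of heart and skeletal muscle, had the smallest p of all subunit genes. It was at 6.62, 6.36 and 6.50 in diploid and 6.02, 6.14 and 6.05 in tetraploid cells. Every diploid array was above every tetraploid array, with a difference of -0.42 ± 0.09 (SE, n = 3 per fraction), a fold of 0.746, and a limma adjusted p of 0.327. The range of its difference when each array was left out in turn was -0.49 to -0.36. Its mean intensity was at percentile 42.2 of all genes. With the dimmest 50% of genes left out it was not tested, and the smallest limma adjusted p of a subunit gene was then 0.773.

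Isoforms that muscle, lung or testis use had diploid means from 5.03 to 7.66. Cox4i2, the isoform of lung, was at 5.75, 5.28 and 5.37 in diploid and 5.40, 5.29 and 5.09 in tetraploid cells, and Cox6a2, the muscle isoform, at 6.81, 6.77 and 6.57 against 6.23, 6.45 and 6.78. In both genes the fractions overlapped, and the differences were -0.21 ± 0.14 and -0.23 ± 0.14 (SE, n = 3 per fraction). The testis isoforms Cox6b2 and Cox8c differed by -0.18 ± 0.09 and -0.16 ± 0.08, and the muscle isoform Cox8b, at 5.03 in diploid and 4.86 in tetraploid cells, was the 1 subunit gene below the limit for testing. All 6 of these isoforms had a lower tetraploid mean, with a median of -0.19. Without them, a choice made after seeing the data, 9 of 11 genes of complex IV had a lower mean and the median was -0.068.

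Other subunits of complex IV are those of liver and most tissues. Cox4i1, which binds ATP and sets the activity of the enzyme, was at 13.56, 13.53 and 13.57 in diploid and 13.45, 13.46 and 13.44 in tetraploid cells. Arrays of each fraction lay close together and the fractions were apart, with a difference of -0.10 ± 0.06 (SE, n = 3 per fraction), a fold of 0.930, and a limma adjusted p of 0.855. Cox5b and Cox6b1, subunits of the matrix and the intermembrane space side, differed by -0.088 ± 0.067 and -0.091 ± 0.066. Ndufa4 differed by -0.077 ± 0.066, Cox6c by -0.068 ± 0.074 and Cox8a by -0.12 ± 0.08.

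Cox6a1 and Cox7a2, the liver counterparts of Cox6a2 and Cox7a1, differed by -0.037 ± 0.066 and -0.032 ± 0.086, and Cox7a2l by -0.058 ± 0.077. Their fractions overlapped. Cox5a was at 13.75, 13.93 and 13.80 in diploid and 13.84, 13.81 and 13.87 in tetraploid cells, with diploid replicate 2 highest and diploid replicate 1 lowest, a difference of 0.014 ± 0.076. Cox7c, the other gene with a higher tetraploid mean, at 0.080 ± 0.124, had a diploid mean of 7.12.

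Complex V, the ATP synthase, had 17 genes, of which 16 had a lower and 1 a higher tetraploid mean, with a median of -0.068. The fractions did not overlap in 8 of the 17, all lower (7.08% of all genes): Atp5a1, Atp5b, Atp5c1, Atp5d, Atp5g1, Atp5g3, Atp5l and Atp5o. Atp5a1 and Atp5b encode the alpha and beta subunits that make ATP in the F1 head. Atp5b was at 13.63, 13.65 and 13.66 in diploid and 13.52, 13.61 and 13.61 in tetraploid cells, and Atp5a1 at 13.23, 13.30 and 13.25 against 13.16, 13.14 and 13.20. The gap between the fractions was narrow in both, and the differences were -0.068 ± 0.067 and -0.096 ± 0.067 (SE, n = 3 per fraction).

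Atp5c1, the gamma subunit that turns inside the head, differed by -0.066 ± 0.067. Atp5o, a subunit of the stalk that holds the head still, was at 12.55, 12.36 and 12.36 in diploid and 12.34, 12.25 and 12.23 in tetraploid cells. Diploid replicate 1 stood above the other arrays and tetraploid replicate 1 lay just under diploid replicates 2 and 3, with a difference of -0.15 ± 0.08. Atp5pb, the b subunit of that stalk, was the 1 gene of the complex with a higher tetraploid mean, at 0.066 ± 0.087, and diploid replicate 1 was the low array there, at 13.58 against 13.78 to 13.84 on the other 5.

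Atp5g1, Atp5g2 and Atp5g3 encode the same mature c subunit, the proteolipid of the ring that turns as protons pass, with different import sequences. Atp5g1 was at 13.29, 13.15 and 13.11 in diploid and 13.10, 13.02 and 12.99 in tetraploid cells. Tetraploid replicate 1 lay just under diploid replicate 3, and the difference was -0.15 ± 0.08 (SE, n = 3 per fraction), with a limma adjusted p of 0.839. Atp5g2 and Atp5g3 differed by -0.069 ± 0.081 and -0.060 ± 0.065, without overlap in Atp5g3.

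**Figure D3:**
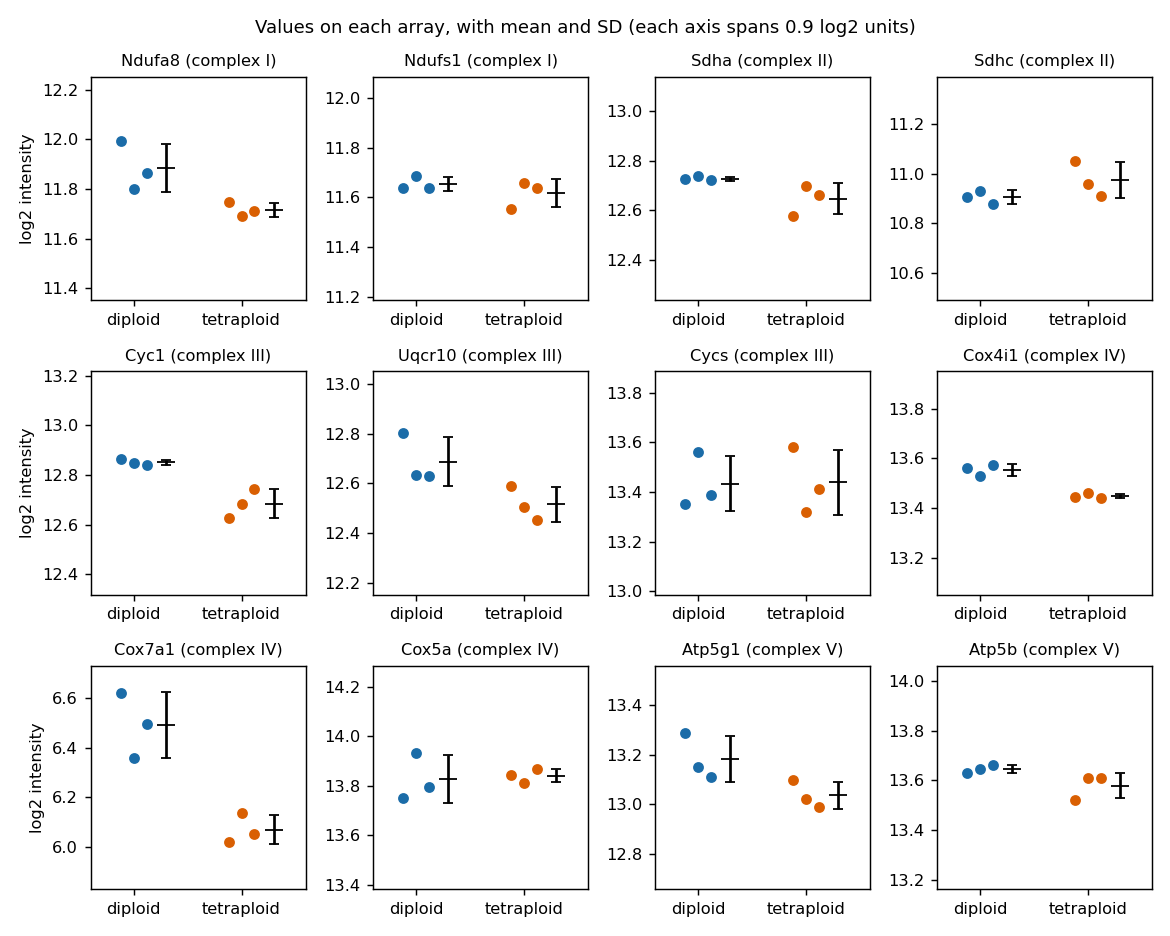
Log2 intensity (vertical axes, each spanning 0.9 units) of 12 subunit genes on the 3 diploid and 3 tetraploid arrays, in replicate order from left to right, with the mean and SD of each fraction at the right of its points. In Cyc1, Cox4i1 and Cox7a1 the fractions are apart, while in Ndufs1, Sdhc, Cycs and Cox5a they overlap.

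The complexes were followed array by array with a score, in which each tested gene's log2 value is set against its own 6-array mean and these deviations are averaged over the complex. Over all 80 genes the score was 0.081, 0.011 and 0.014 in diploid replicates 1 to 3 and -0.002, -0.055 and -0.050 in tetraploid replicates 1 to 3. Diploid replicate 1 stood well above the other diploid arrays, tetraploid replicate 1 above the other tetraploid arrays, and the fractions did not overlap. Over all genes tested the same score stayed between -0.011 and 0.014.

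The order of the arrays was not the same in every complex. In complex I tetraploid replicate 1, at 0.029, lay above diploid replicates 2 and 3, at 0.002 and 0.005, and in complex II it lay, at -0.004, above diploid replicate 3 at -0.009. In complex III the lowest diploid array was at 0.020 and the highest tetraploid array at -0.002, and in complex V they were at 0.007 and 0.0003. Complex IV ran from 0.019 to 0.102 in diploid and from -0.067 to -0.044 in tetraploid cells, with tetraploid replicate 1 lowest. That width and order rested on the isoforms of other tissues. Without them, a choice made after seeing the data, the 11 remaining genes scored 0.040, 0.003 and 0.036 in diploid and -0.015, -0.022 and -0.043 in tetraploid cells. Tetraploid replicate 1 was then the highest tetraploid array, as in the other 4 complexes, and the mean difference was -0.052, against -0.11 with the isoforms and -0.072 in complex III. Whether the complexes differ from each other was not tested.

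**Figure D4:**
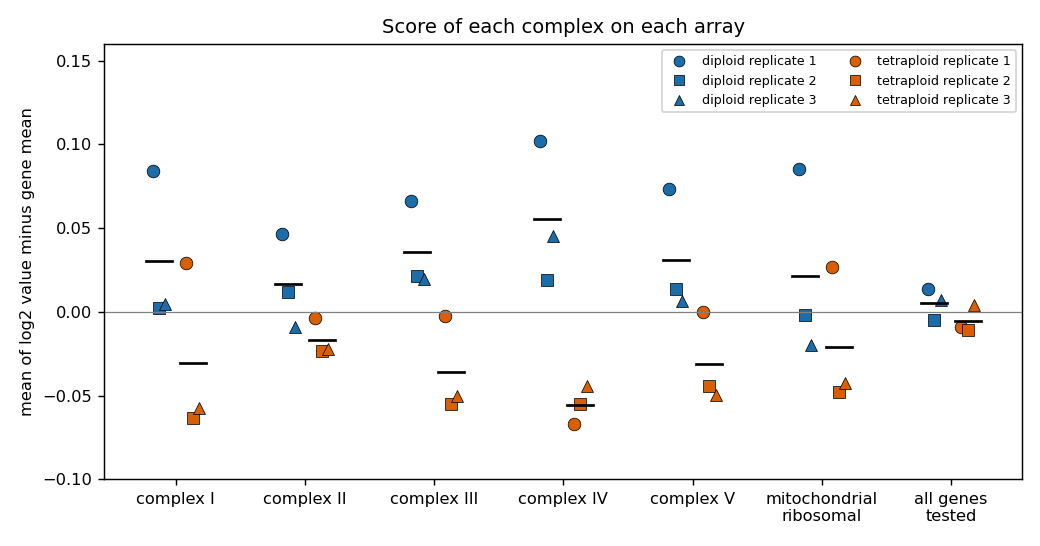
Score of each complex on each array (vertical axis, mean of log2 value minus gene mean), with mitochondrial ribosomal proteins and all genes tested for comparison. Colours mark the fraction, symbols the replicate and short bars the mean of 3 arrays. Diploid replicate 1 is the highest point in each complex, and the wide gap in complex IV rests on its tissue isoforms, without which the mean difference is -0.052.

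A single array carried part of the difference. Diploid replicate 1 was the highest of the 6 arrays for 52 of the 80 subunit genes and for 27.3% of all genes tested. Tetraploid replicates 2 and 3 were the lowest for 33 and 27 of the 80, against 20.2% and 14.7% of all genes. Without diploid replicate 1, 67 of the 80 genes still had a lower tetraploid mean, against 49.9% of all genes, but the median was -0.044, and it was -0.026 in complex I, -0.029 in complex II and -0.041 in complex V. The fractions were then apart in 26 of the 80, lower in the tetraploid fraction, against 9.79% of all genes. Without tetraploid replicate 1 they were apart in 47 of the 80, against 12% of all genes, 75 had a lower mean, against 52%, and the median of complex III was -0.079. With another array left out, 73 of the 80 genes were lower without diploid replicate 2 (54.5% of all genes) and 73 without diploid replicate 3 (52.9%), and 67 without tetraploid replicate 2 (51.4%) and 67 without tetraploid replicate 3 (53.6%). The fractions were then apart, lower in tetraploid cells, in 35 (13.9% of all genes), 28 (12.5%), 28 (11%) and 30 (14%) of the 80.

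**Figure D5:**
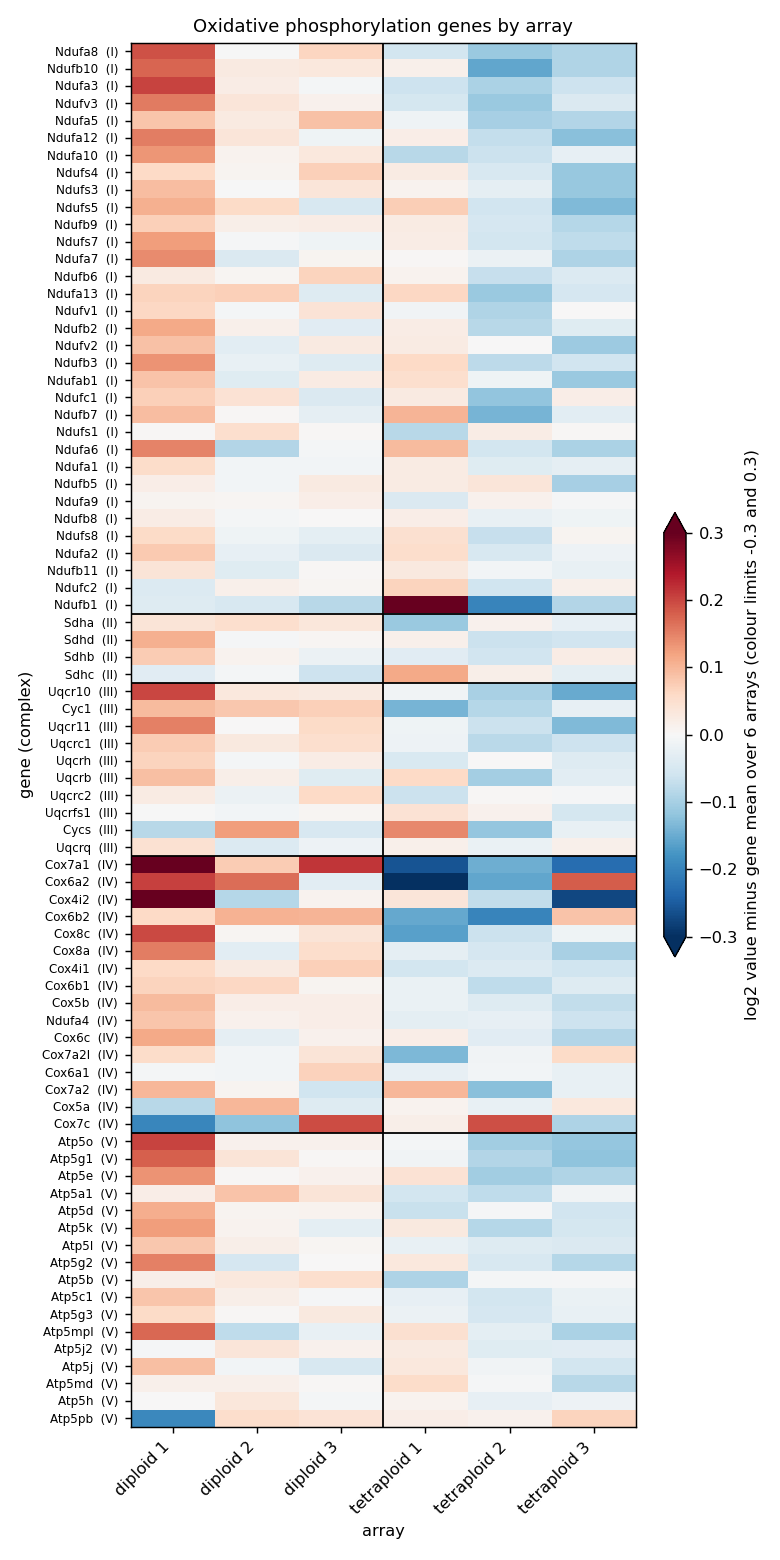
Deviation of each log2 value from the gene's mean over the 6 arrays (colour, limits -0.3 and 0.3) for the 80 tested subunit genes (rows, grouped by complex and ordered by difference) on each array (columns). The column of diploid replicate 1 is above the gene mean for 70 of the 80 genes, and the columns of tetraploid replicates 2 and 3 for 11 and 12.

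Other probe sets of the same genes gave a like picture. There were 73 further probe sets for the 80 genes, of which 66 were bright enough to pass the same limit. Of these 66, 56 were lower and 10 higher in the tetraploid fraction, with a median difference of -0.071. Of the 9 genes with a higher tetraploid mean, 6 had another bright probe set, and in 4 of them, Atp5pb, Cox5a, Cycs and Uqcrq, such a probe set was lower. For Uqcrq those probe sets, at mean log2 intensities of 5.75 and 5.37, lay near the limit. In Ndufc2 and Sdhc the second probe set was higher too, by 0.003 and 0.091. Some genes with a lower tetraploid mean also had a bright probe set that was higher. These were Atp5a1 (by 0.137), Sdhd (0.064), Ndufb6 (0.050), Atp5o (0.016), Cox7a2l (0.014) and Ndufb5 (0.009). In Ndufs4 the other probe sets were higher by 0.056 and 0.015. Probe sets of the same gene share their RNA and array, so they do not add replicates.

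Genes that work beside the complexes were described in the same way, and 0 of them passed an adjusted p of 0.05 with limma. Of 38 tested assembly factors, 11 act on complex I, with 6 lower and 5 higher, 3 on complex II, with 1 lower and 2 higher, 5 on complex III, with 3 lower and 2 higher, 16 on complex IV, with 12 lower and 4 higher, and 3 on complex V, with 2 lower and 1 higher. Their medians ran from -0.046 to 0.004, and the fractions were apart in 0 of the 38 with a lower tetraploid mean (7.08% of all genes) and in 2, Acad9 and Tmem70, with a higher one (5.22%). Foxred1 and Acad9, which help to assemble complex I, differed by -0.19 ± 0.12 and 0.19 ± 0.07. Acad9 had the 1 unadjusted limma p under 0.05 among the 38, where 6.18% of all genes had one. Bcs1l and Uqcc1 of complex III differed by -0.056 ± 0.103 and 0.027 ± 0.090, Cox18 and the heme lyase Hccs, on the list of complex IV, by -0.16 ± 0.10 and 0.11 ± 0.10, and Fmc1 and Tmem70 of complex V by -0.10 ± 0.09 and 0.089 ± 0.068 (SE, n = 3 per fraction).

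The supply of electrons and the export of ATP were followed with further lists. Of 16 tested genes of the citrate cycle and pyruvate dehydrogenase, 12 had a lower and 4 a higher tetraploid mean, with a median of -0.023. Dlst and Dld, both parts of the oxoglutarate dehydrogenase complex, lay on opposite sides of 0, at -0.21 ± 0.07 and 0.13 ± 0.07 (SE, n = 3 per fraction). Of 8 genes that feed ubiquinone by other routes, 4 were lower and 4 higher on average, among them the sulfide oxidase Sqor at -0.11 ± 0.07 and the choline dehydrogenase Chdh at 0.083 ± 0.068. Of 9 genes of ubiquinone synthesis 5 were lower and 4 higher on average, with Coq5 at -0.11 ± 0.08 and Coq10a at 0.14 ± 0.09.

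Of 10 genes for exchange across the mitochondrial membranes, 7 were lower and 3 higher on average. The fractions were apart in 3 with a lower mean (7.08% of all genes) and in 1 with a higher one (5.22%). Slc25a4, an adenine nucleotide carrier that brings ATP out of the matrix, was at 10.57, 10.38 and 10.38 in diploid and 10.24, 10.26 and 10.18 in tetraploid cells. Its fractions were apart, with a difference of -0.22 ± 0.08 and a limma adjusted p of 0.779. The brighter Slc25a5, another such carrier, had means of 14.13 in diploid and 14.06 in tetraploid cells. Its fractions overlapped, with a difference of -0.073 ± 0.084. Slc25a13, an aspartate and glutamate carrier, differed by 0.13 ± 0.08 in the other direction. Of 16 regulators of mitochondrial biogenesis, 8 were lower and 8 higher on average, with Polg, the mitochondrial DNA polymerase, at -0.14 ± 0.09 and the termination factor Mterf3 at 0.13 ± 0.09 (SE, n = 3 per fraction).

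The mitochondrial ribosomal proteins, which make the subunits encoded in mitochondrial DNA, had a similar order of arrays. Of 74 tested, 57 had a lower tetraploid mean, with a median of -0.046, and the fractions were apart with a lower mean in 4 of the 74 (7.08% of all genes) and with a higher one in 1 (5.22%). Their score was 0.085 on diploid replicate 1 and 0.027 on tetraploid replicate 1, above diploid replicates 2 and 3 at -0.002 and -0.020. Of 46 cytosolic ribosomal protein genes 21 were lower, with a median of 0.003. The differences between these groups were not tested.

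Genes of other cell types were compared beside the subunits. Of 10 endothelial and 11 Kupffer cell markers on the array, 2 and 4 were under the limit for testing. The log2 of the summed intensity of the endothelial markers lay between 9.92 and 10.11 in diploid and between 10.06 and 10.30 in tetraploid cells. Of the 8 endothelial markers tested, 6 had a higher tetraploid mean, with a median difference of 0.23. At an unadjusted limma p under 0.05 there were 3, all higher, where 2.32% of all genes were higher, and the smallest adjusted p was 0.779. The sum of the Kupffer cell markers lay between 9.002 and 9.18 in diploid and between 8.86 and 9.11 in tetraploid cells, and 6 of 7 tested had a lower tetraploid mean. The sum of 9 lymphocyte markers, of which 7 were under the limit for testing, lay between 8.09 and 8.24 in diploid and between 8.03 and 8.05 in tetraploid cells, without overlap. For 10 stellate cell, 6 cholangiocyte and 7 erythroid markers the ranges of the fractions overlapped, and 4 markers of each of these lists were under the limit. The part of other cell types in the difference of the subunits was not tested. The log2 ratio of the 3′ to the 5′ control probe sets, a sign of RNA quality, lay between 1.59 and 1.71 in diploid and between 1.56 and 1.69 in tetraploid cells for beta-actin, and between -0.017 and 0.042 and between -0.076 and 0.024 for Gapdh. These ranges overlapped.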

How the data were processed

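Total RNA of 3 diploid and 3 tetraploid hepatocyte samples was measured on Affymetrix arrays, 1 array per sample, with biotin-labelled cRNA per the labels. The deposited table holds an intensity per probe set and array, made with RMA per the submitters' processing notes, and its linear scale was read from the values. The sources used here do not give its version. The number of arrays limits the precision.

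The log2 of each intensity was taken. Among 22690 probe sets 64 were controls, which were removed, 20380 had 1 gene symbol in the platform annotation, 691 several and 1555 none. Entrez identifiers of 20351 matched the RefSeq gene table and changed 0 symbols. The brightest probe set stood for each of 12393 genes, and the 25% of genes with the lowest mean were left out, which left 9295. For 46 of the 80 tested subunit genes that probe set was of a kind (_s_at, _x_at or _a_at) that can match several transcripts. The fractions were compared with limma 3.58.1 in R 4.3.3 (lmFit, eBayes, two-sided, ploidy as the single factor, Benjamini-Hochberg over all genes, threshold 0.05). Tested on simulated data with these 9295 genes, the fit found 83.7% of the genes given a 1.5-fold change and 98.0% of those given a 2-fold change. The subunit genes differed by less than these changes, so the simulation does not tell whether the fit could find differences of their size.

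The genes, the lists and the alternatives were chosen with earlier results of these data known. The genes named are, for each complex, the 3 with the smallest p and the 1 with the smallest p in the other direction, a set of reference subunits, and the gene with the smallest p in each direction of each further list. Ndufa3, Ndufa10, Ndufv3, Ndufc2, Ndufa4, Atp5d, Atp5l and Slc25a5 lie outside this rule and were named after their values were seen. Groups were taken from the sample titles.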

Additional observations from a re-analysis of the deposited data

How the results depend on the processing

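Alternatives covered the filter on dim genes, the choice of probe set, a pseudocount of 16, array weights, another variance model, 2 further normalizations, the replicate number as a block, and each array left out. In each of them 0 of the subunit genes passed an adjusted p of 0.05 with limma, and their smallest adjusted p ran from 0.30 to 0.792. At an unadjusted limma p under 0.05 there were 10 lower and 0 higher of the 80 subunit genes with the other variance model (trend and robust). The main fit had 2 and 0. The other model gave 5.81% of all genes in either direction, and its share of lower genes alone was not computed. Over all genes, 9 passed with the replicate block, and between 0 and 1 when an array was left out, the 1 being Hells without tetraploid replicate 1. The correlations did not follow the replicate numbers in all the samples: deviations from the group means correlated at 0.574, -0.195 and -0.200 for replicates 1, 2 and 3. Diploid replicate 2 correlated best with tetraploid replicate 3, at 0.384, and diploid replicate 3 with tetraploid replicate 2, at 0.695. Over the 80 subunit genes the best matches were the same, replicates 1 included, at 0.196, 0.417 and 0.457. Whether the samples form such pairs was not tested. With the replicate block the median of the 80 genes stayed at -0.066. With every probe set counted, 128 of 148 were lower. In complex II this held for only 4 of 7 (median -0.045). The others had 58 of 66 in complex I, 15 of 18 in complex III (median -0.080), 27 of 30 in complex IV and 24 of 27 in complex V. Complex IV had 9 lower genes of 11 without tissue isoforms, an alternative added after seeing the data. The median of complex II was -0.025 with the mean over probe sets and ran from -0.075 to -0.029 with an array left out, and that of complex III was -0.119 without probe sets that can match several transcripts. Counts of genes whose fractions did not overlap ran from 26 to 47 with an array left out, where fewer arrays make a gap more likely.

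Of 671 values for 43 named genes under these alternatives, 646 kept their sign and 25, in 7 genes, did not. Without probe sets that can match several transcripts the differences were -0.039 for Atp5pb, -0.120 for Cox5a, -0.121 for Cycs and -0.116 for Uqcrq. With the mean over probe sets they were -0.046 for Cox5a, -0.080 for Cycs and -0.067 for Uqcrq. With array weights they were -0.00685 for Cox5a, -0.027 for Cycs and -0.00146 for Uqcrfs1, and with centring on the median -0.00171 for Cycs and -0.00352 for Uqcrfs1. With an array left out the difference ran from -0.014 to 0.109 for Atp5pb, -0.024 to 0.067 for Cox5a, -0.090 to 0.023 for Cox7a2, -0.067 to 0.068 for Cycs, -0.086 to 0.242 for Ndufb1, -0.018 to 0.029 for Uqcrfs1 and -0.012 to 0.031 for Uqcrq. The cause was not tested.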

Other observations

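Among the 65 tested subunit genes with a promoter window, 34 of 35 with at least 1 of the 4 motifs and 24 of 30 without had a lower tetraploid mean, and their medians were -0.069 and -0.065. The fractions were apart, lower in tetraploid cells, in 11 of the 35 and in 10 of the 30, against 7.08% of all genes. This split was made after seeing the data and was not tested.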
